A study of Saccharomyces cerevisiae with 8 samples.

Results

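A group of ACA sites in yeast mRNA, 1 in each of 270 gene models and 2 in each of 14 more, was cut in every library without the m6A methyltransferase and protected in every wild-type library, already in input RNA and again after m6A immunoprecipitation (IP). The sites were selected on their measured values: of 76330 distinct sites, 17361 had a value in all 8 libraries, and a member had a cleavage efficiency of at least 0.7 in all 4 libraries without IME4 (KO) and at most 0.5 in all 4 wild-type (WT) libraries. The members made up 1.72% of the sites with complete values and lay in 284 gene models in all. Of the 7041 sites at 0.7 or more in all 4 KO libraries they made up 4.23%. Because the difference between genotypes at the members is what chose them, it is described here and not tested.

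All cells were diploid yeast of the SK1 strain (MAT a/alpha), homozygous for ndt80::LEU2, for ho::LYS2 and for lys2, taken after induction of meiosis at a time that the labels do not give. The WT group carried no further allele, and the KO group was in addition ime4::HIS3/ime4::HIS3. Polyadenylated RNA of each genotype was profiled as input and after IP with an m6A antibody, and each of the 4 groups had 2 biological replicates. NDT80, disrupted in both genotypes, encodes the activator of the middle genes of meiosis, and nothing in the values checks the stage of the cells.

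IME4 encodes the methyltransferase that places N6-methyladenosine (m6A) on yeast mRNA, and it acts during meiosis. MazF is a bacterial endoribonuclease that cuts RNA immediately before the sequence ACA and does not cut where the first A carries m6A. A methylated ACA should therefore be cut less, and the antibody enriches fragments that carry m6A anywhere, methylated or not at a given site. The cleavage efficiency is a fraction between 0 and 1, deposited as normalized by the authors. A higher value was read as more cutting, from the name of the quantity, since no source used here states the direction or the formula. The name of the deposited table is also the only source for MazF.

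Few sites of the deleted gene were measured in KO. Of 27 listed sites of IME4, 21 and 23 had a value in the WT inputs and 16 and 24 in the WT IPs, against 2 and 0 in the KO inputs and 0 and 0 in the KO IPs. Of NDT80, 3 sites are listed, with 2 and 3 values in the WT inputs, 1 and 0 in the WT IPs, 0 and 1 in the KO inputs and 0 and 0 in the KO IPs, and which part of it the disruption removed is not given in the labels. The libraries had between 27709 and 62498 measured sites, with medians of 0.636 to 0.639, and the correlation between replicates over the 17361 sites was 0.929 for WT input, 0.944 for WT IP, 0.984 for KO input and 0.955 for KO IP. No read counts accompany the values, so the depth at a site is unknown. In each library 3.23% to 9.80% of the measured sites shared the highest value of that library. Among the members 13 and 7 sat at that ceiling in the KO inputs and 32 and 11 in the KO IPs, and 0 did in any WT library.

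The choice of the members set a high level of cutting without IME4, and with it they were cut to widely different degrees. The median efficiency of the members was 0.906 and 0.902 in the KO inputs and 0.901 and 0.894 in the KO IPs. Over the 7041 sites cut in all KO libraries it was 0.907 and 0.906 in the KO inputs and 0.907 and 0.910 in the KO IPs. For the members it was 0.317 and 0.291 in the WT inputs and 0.136 and 0.110 in the WT IPs. The means of a site over its replicates ran from 0.713 to 1 in KO input, from 0.726 to 1 in KO IP, from 0.0579 to 0.498 in WT input and from 0.00435 to 0.494 in WT IP. The median SD between replicates (n = 2) was 0.0311 in WT input, 0.0173 in WT IP, 0.0226 in KO input and 0.0264 in KO IP, which is small beside the distance between the quartiles of the members in WT, 0.220 and 0.384 in input and 0.0490 and 0.251 in IP.

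**Figure D1:**
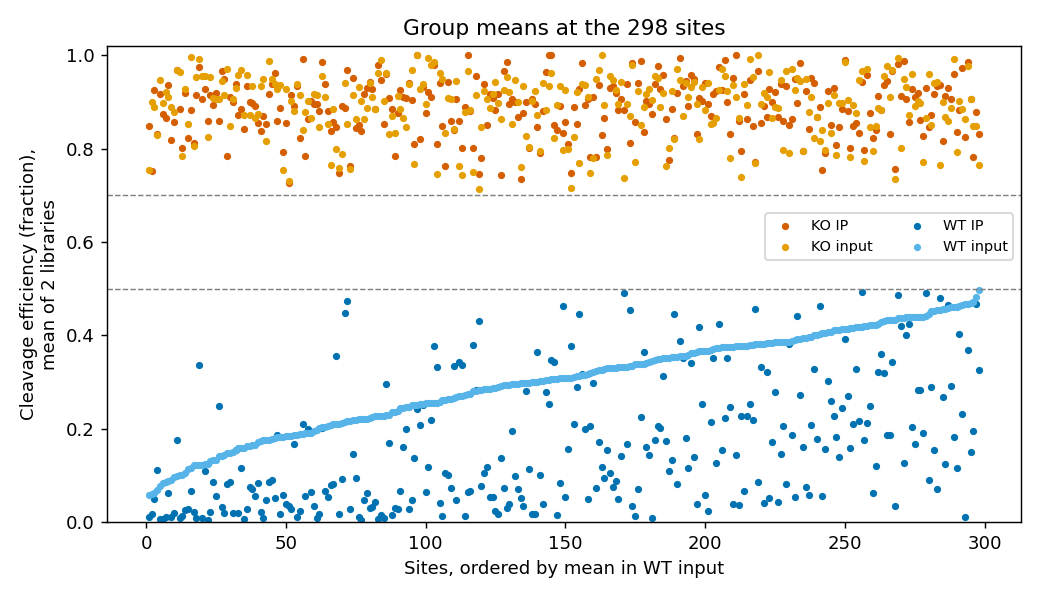
Mean cleavage efficiency of 2 libraries (vertical axis, fraction) at each member, ordered along the horizontal axis by the mean in WT input; 1 point per site and group, dashed lines at the limits of 0.5 and 0.7. The KO points fill the band from 0.713 to 1, while most WT IP points lie under the WT input points of the same site.

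Relative to KO, a median of 0.348 of the cleavage was left in WT input (range 0.0675 to 0.650) and 0.143 in WT IP (range 0.00506 to 0.591). In WT input 11 members were below 0.1, 50 between 0.1 and 0.2, 76 between 0.2 and 0.3 and 60 between 0.4 and 0.5, with the most between 0.3 and 0.4. In WT IP the same bins held 132, 62, 48, 33 and 23 members, so the fullest bin was the lowest one. Across the members WT input and WT IP correlated with a Pearson r of 0.486 and a Spearman rho of 0.533 (over all members, which share libraries and normalization). Replicates correlated at 0.812 within WT input and 0.908 within WT IP. The choice of the members holds all WT values at or under 0.5, so these correlations describe a range cut by that choice.

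The 12 members with the widest gap, the lowest KO value minus the highest WT value, are those where every library of a genotype was near its end of the scale. SSL2, the DNA translocase subunit of the transcription factor TFIIH, held the widest at 0.820. Its site lay at chromosome 9, position 88375, minus strand, 2841 nt from the start of the gene model (written +2841), in the coordinates of the deposited table, whose build is not given in the sources used here. Exon, intron and UTR annotation was not given for any site. The efficiency at SSL2 +2841 was 0.0944 and 0.0588 in the WT inputs, 0.00156 and 0.0130 in the WT IPs, 0.953 and 0.940 in the KO inputs and 0.914 and 0.922 in the KO IPs. All WT values were under 0.1 and all KO values above 0.9, and it was the last listed site of its model.

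ROX1, which encodes the repressor of hypoxic genes, followed the same pattern at +1373 (chromosome 16, position 694144, plus strand). The efficiency was 0.107 and 0.106 in the WT inputs, 0.0278 and 0.0232 in the WT IPs, 0.940 and 0.917 in the KO inputs and 0.909 and 0.930 in the KO IPs, again at the last listed site. At AHA1 +1177 (chromosome 4, position 898791, plus strand), in the gene of an activator of the Hsp90 ATPase, the values were 0.0597 and 0.0671 in the WT inputs, 0.0781 and 0.0194 in the WT IPs, 0.857 and 0.923 in the KO inputs and 0.888 and 0.963 in the KO IPs. All WT values were below 0.1, and the WT IPs fell on either side of the WT inputs.

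MIC27 +793 (chromosome 14, position 456044, plus strand), in a gene of the MICOS complex of the mitochondrial inner membrane, read 0.134 and 0.152 in the WT inputs, 0.0319 and 0.0314 in the WT IPs, 0.967 and 0.924 in the KO inputs and 1.00 and 0.935 in the KO IPs. YGL140C +3627 (chromosome 7, position 246973, minus strand), in a gene without a standard name, read 0.0923 and 0.0861 in the WT inputs, 0.0735 and 0.0507 in the WT IPs, 0.910 and 0.912 in the KO inputs and 0.922 and 0.951 in the KO IPs. Both lay in the last of 5 equal parts of their model, as did 11 of the 12 sites. AHC2 +555 (chromosome 3, position 275229, plus strand), in a gene of the Ada histone acetyltransferase complex, read 0.0844 and 0.0861 in the WT inputs, 0.0118 and 0.0108 in the WT IPs, 0.903 and 0.941 in the KO inputs and 0.879 and 0.851 in the KO IPs. The WT IPs were close to 0 there, and the KO IPs were somewhat below the member medians.

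The remaining sites of the 12 were YJR115W +669, NCE103 +864, EPO1 +2976, SRL2 +1493, YLR345W +1508 and COS7 +2462. Their WT values ran from 0.00425 at NCE103 to 0.155 at EPO1, and their KO values from 0.851 at YLR345W to 1.00 at SRL2. COS7 belongs to a subtelomeric family whose copies are nearly identical, so reads could be split or shared between them. The narrowest gap of all members, 0.215, was at YOL036W +880.

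**Figure D2:**
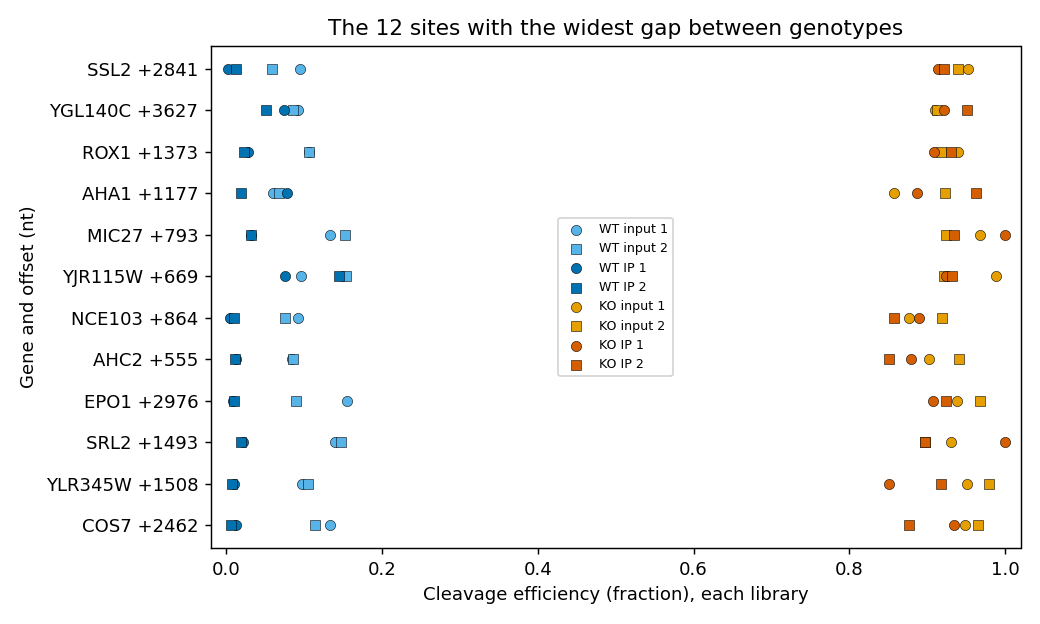
Cleavage efficiency in each of the 8 libraries (horizontal axis, fraction) at the 12 members with the widest gap between genotypes, 1 row per site labelled by gene and offset; circles are replicate 1 and squares replicate 2. WT points of input and IP crowd the left end and KO points the right end, with no overlap, as the choice of the sites requires.

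The limits of 0.7 and 0.5 cut through a continuous range. The members closest to the lower KO limit were PHR1 +1379, with 0.703 in KO IP replicate 1, STO1 +2624 and PKH2 +1375. ATP15 +386, MEC1 +6988 and MAG1 +1064 missed it with lowest KO values of 0.698 to 0.699. UBI4 +1080, AAT2 +1436 and PMT1 +1544 came closest to the WT limit from below, and SRT1 +935, SRB6 +274 and KEX1 +2366 missed it with highest WT values of 0.501 to 0.502. Requiring 0.8 and 0.4 left 132 sites, and allowing 0.6 and 0.6 gave 617.

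Whether the antibody step lowers the efficiency further was read by comparing WT IP with WT input in a limma fit over all 17361 sites, with p-values adjusted by Benjamini and Hochberg and called at 0.05. The labels call the replicates biological, and with 2 libraries a group the smallest two-sided p that an exact test of 1 site allows is 0.333. In WT, 142 of the members were called lower in IP than in input (47.7%), against 8.43% of all tested sites, and 10 were called higher (3.36%, against 12.4%). Both WT values of a member are held at or under 0.5 by the choice of the sites, which leaves little room for a rise, so these shares are a description of a set selected on the same values. With only the 4 WT libraries in the fit the 142 became 74, and without WT IP replicate 1 or 2 they became 93 and 79.

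Without a test, both WT IP libraries lay below both WT inputs at 231 members (77.5%; 21.0% of tested sites) and above them at 25 (8.39%; 42.4%). The median difference was -0.153 at the members, with a range of -0.454 to 0.258, against 0.0303 over all tested sites and 0.0138 over the 7041 sites cut in all KO libraries. In KO the corresponding median was -0.00306 at the members and 0.00813 over tested sites. There 1 member was called lower in IP (0.588% of tested sites) and 0 were called higher (1.09% of tested sites). Both KO IP values lay below both KO inputs at 74 members (24.8%; 20.3% of tested sites) and above at 56 (18.8%; 30.6%).

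The single member called lower in KO IP was NOB1 +1377, in the gene of the endonuclease that makes the 3' end of 18S rRNA. It read 0.308 and 0.338 in the WT inputs, 0.0621 and 0.0858 in the WT IPs, 0.962 and 0.935 in the KO inputs and 0.789 and 0.775 in the KO IPs. The call was lost in every fit that left out 1 library.

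PUP2, which encodes an alpha subunit of the 20S proteasome core, had the largest difference from WT input to WT IP. Since the choice of the sites used these same values, differences at single members are given with their SE and without a p. At +636 (chromosome 7, position 1016308, minus strand) it read 0.477 and 0.456 in the WT inputs, 0.00798 and 0.0159 in the WT IPs, 0.864 and 0.865 in the KO inputs and 0.831 and 0.819 in the KO IPs. The WT inputs were just under the limit of 0.5 and the WT IPs close to 0, a difference of -0.454 (SE 0.0219). GAP1, the general amino acid permease, followed at +429 with 0.460 and 0.408 in the WT inputs, 0.0232 and 0.0475 in the WT IPs, 0.730 and 0.741 in the KO inputs and 0.736 and 0.776 in the KO IPs. The difference between its WT groups was -0.398 (SE 0.0293).

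YER079W +695 went from 0.476 and 0.435 in the WT inputs to 0.0628 and 0.0806 in the WT IPs. ACH1, a mitochondrial CoA transferase that acts in acetate metabolism, went at +1274 from 0.441 and 0.406 to 0.0689 and 0.0565. NUM1, the cortical anchor of dynein and mitochondria, went at +6175 from 0.421 and 0.472 to 0.0909 and 0.0907. The WT groups overlapped at none of these 5 sites, and the 5 calls held in all 15 alternative fits.

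The 5 largest differences upward among the 10 members called higher in WT IP were in MUK1, MEI5, SPO24, YMR181C and CSS1. MEI5, whose product loads the recombinase Dmc1 together with Sae3, read 0.219 and 0.210 in the WT inputs, 0.458 and 0.436 in the WT IPs, 0.926 and 0.954 in the KO inputs and 0.873 and 0.902 in the KO IPs at +238. The difference in WT was 0.233 (SE 0.0246). SPO24, a small gene of sporulation, read 0.134 and 0.111 in the WT inputs, 0.352 and 0.320 in the WT IPs, 0.987 and 0.995 in the KO inputs and 0.958 and 0.993 in the KO IPs at +394, a difference of 0.213 in WT (SE 0.0260). At both sites the WT IPs stood above the WT inputs and still below 0.5, and both calls ended on the logit scale, where no member was called higher.

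MUK1, a guanine nucleotide exchange factor for endosomal Rab proteins, differed by 0.258 at +49 with WT inputs of 0.142 and 0.290 and WT IPs of 0.460 and 0.488. Its call ended under 9 alternatives. YMR181C +577 differed by 0.158 and CSS1 +5426 by 0.154. Of 15 alternative fits, the YMR181C call held in 3 and the CSS1 call in 7. CSS1 has close copies elsewhere in the genome.

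**Figure D3:**
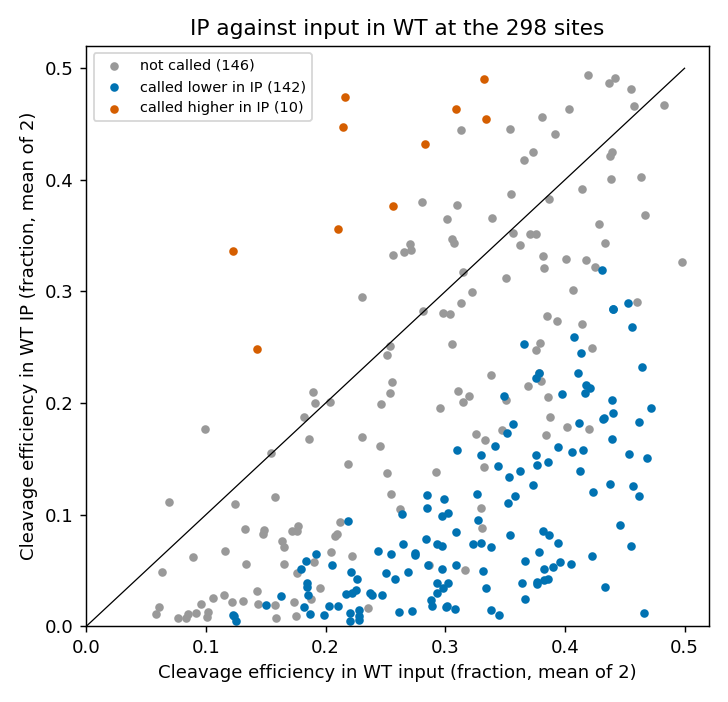
Mean efficiency in WT IP (vertical axis, fraction) against WT input (horizontal axis, fraction) at the members, with the line of equality; colours mark limma calls at an adjusted p below 0.05 in the fit of all libraries. The 142 sites called lower lie well under the line and the 10 called higher lie above it.

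The difference between IP and input was also set against that in KO. The interaction was called lower at 61 members (20.5%, against 4.31% of tested sites) and higher at 2, MEI5 and SPO24 (3.43% of tested sites). All 8 values behind it are bounded by the choice of the members, unlike those of the tested sites, so nothing is read from the shares. The 61 calls were lost altogether when KO input replicate 1 or KO input replicate 2 was left out, and also when replicate numbers within each genotype were fitted as a block. The median interaction was -0.153 at the members and 0.0184 over all tested sites. For completeness, the contrasts that chose the members called all members lower in WT than in KO, in input (15.6% of tested sites) and in IP (17.0%), and 0 higher (16.6% and 24.3%); nothing is read from those counts.

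The members lay near the 3' ends of their gene models more often than other sites did, a property that their choice did not use. In yeast, m6A is known to lie mostly toward the 3' ends of transcripts. When each model was divided into 5 equal parts between its start and its last listed site, the members fell 12, 21, 28, 72 and 165 into the successive parts, which put 55.4% in the last (95% Wilson interval 49.7% to 60.9%, counting error only). All tested sites had 37.6% in the last part and the 7041 sites cut in all KO libraries had 40.1%. The 419 sites that were as well cut in KO, at or under 0.5 in both WT IPs and above 0.5 in both WT inputs had 47.5%. No test of these shares was made, and the interval counts the sites as independent although 14 models held 2 of them.

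Read the other way, 2.54%, 2.34%, 2.49%, 4.18% and 5.84% of the KO-cut sites in the successive parts were members. The share was nearly flat over the first 3 parts and higher in the last 2. For the sites protected only after IP the shares were 5.50%, 5.25%, 5.24%, 5.11% and 7.05%, which were level over the first 4 parts and highest in the last. The last listed site of a model was a member in 46 cases, which is 15.4% of the members (interval 11.8% to 20.0%), against 7.0% of tested sites, 9.87% of the KO-cut sites and 9.55% of the sites protected only after IP.

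Distance gave the same order. The median distance to the last listed site was 285.5 nt for the members and 447 nt for all tested sites. Within 500 nt of it lay 69.1% of the members, against 54.2% of tested sites. The sites protected only after IP were closer to the members, with a median of 336 nt and 63.2% within 500 nt. Of 296 member sites with a gene length in the R64 reference, 134 (45.3%) lay at an offset beyond that length. The share was 28.6% for tested sites, 31.9% for KO-cut sites and 39.8% for the sites protected only after IP. The place of a model's start relative to the start codon is not given in the sources used here, so the offset does not place a site in the coding sequence or in a UTR. Every chromosome contributed, with members making up between 1.45% and 2.15% of its tested sites.

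**Figure D4:**
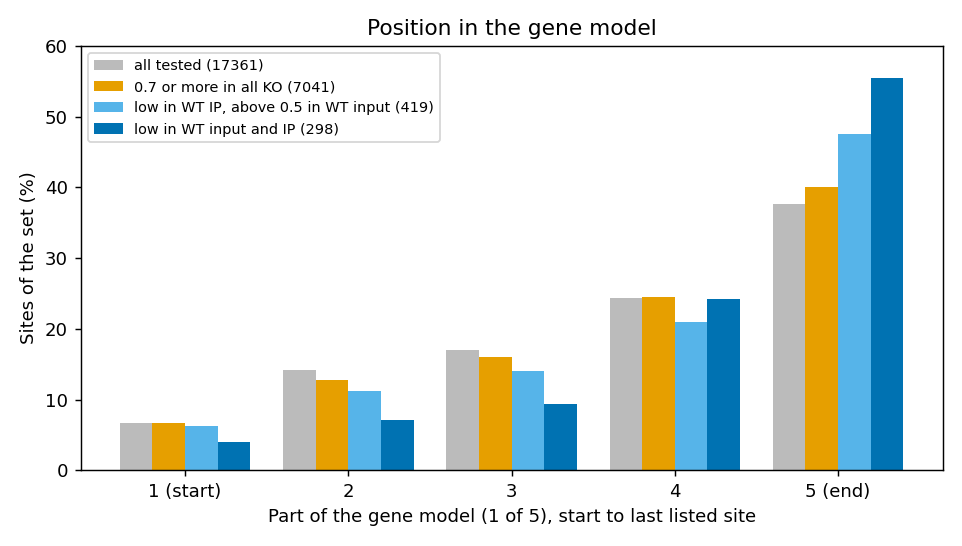
Share of sites (vertical axis, %) in each part of the gene model from its start to its last listed site (horizontal axis), for all tested sites, sites at 0.7 or more in all KO libraries, sites protected only in WT IP, and the members. The members have the smallest share of the sets in parts 1 to 3 and the largest, 55.4%, in the last.

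Sites near a model's start were the exception. MUK1 +49, AMS1 +222, UBP6 +183 and LSB1 +142 lay nearest to it in relative terms. UBP6, a proteasome-bound ubiquitin protease, read 0.370 and 0.224 in the WT inputs, 0.105 and 0.0926 in the WT IPs, 0.962 and 0.934 in the KO inputs and 0.890 and 0.910 in the KO IPs, and LSB1, which binds the actin regulator Las17, read 0.473 and 0.310 in the WT inputs, 0.438 and 0.445 in the WT IPs, 0.986 and 0.918 in the KO inputs and 0.877 and 0.920 in the KO IPs. WT IP was below WT input in both replicates at UBP6, while at LSB1 the groups overlapped.

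Most genes had a single member. In 270 models there was 1 and in 14 there were 2. Models with a member had a median of 6 tested sites and the 3479 tested models without one had 3, so a gene with more measured sites had more chances to hold a member. In 38 of the 284 genes there was also a site protected only after IP. Of all 3763 models with a tested site, 388 held such a site, and these counts were not compared. In 8 genes the member was the only tested site.

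The 2 sites of a gene could differ clearly. NCE103, which encodes carbonic anhydrase, held members 6 nt apart. At +864 (chromosome 14, position 572034, plus strand) the efficiency was 0.0918 and 0.0748 in the WT inputs, 0.00425 and 0.0101 in the WT IPs, 0.876 and 0.919 in the KO inputs and 0.889 and 0.858 in the KO IPs. At +870 it was 0.317 and 0.278 in the WT inputs, 0.0401 and 0.0619 in the WT IPs, 0.727 and 0.793 in the KO inputs and 0.733 and 0.737 in the KO IPs. The second site was cut less without IME4 and more with it, and whether values 6 nt apart rest on the same reads was not tested.

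In SMC1, a cohesin subunit, +3349 read 0.165 and 0.135 in the WT inputs, 0.0215 and 0.0159 in the WT IPs, 0.930 and 0.882 in the KO inputs and 0.899 and 0.901 in the KO IPs. The site 292 nt further along, +3641, read 0.439 and 0.412 in the WT inputs, 0.296 and 0.348 in the WT IPs, 0.901 and 0.875 in the KO inputs and 0.935 and 0.892 in the KO IPs. KO levels were alike and the WT levels differed in every library. In ATP3, the gamma subunit of the F1 ATP synthase, +540 had WT IP values of 0.0184 and 0.0162 and +1220 had 0.384 and 0.421, with KO values between 0.850 and 0.936 at both.

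RTK1, a protein kinase gene, had WT inputs of 0.216 and 0.244 and WT IPs of 0.306 and 0.284 at +1450. At +1787 its WT inputs were 0.316 and 0.286 and its WT IPs 0.0208 and 0.0151. The 2 sites were protected to a like degree in input and stood apart after IP. BCK1, the MAP kinase kinase kinase of the cell wall integrity pathway, showed WT IPs of 0.495 and 0.488 at +4358 and 0.0814 and 0.0285 at +4637.

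PCH2, the AAA+ ATPase of the meiotic recombination checkpoint, had members at +1283 and +1670. The first read 0.382 and 0.306 in the WT inputs, 0.161 and 0.127 in the WT IPs, 0.890 and 0.965 in the KO inputs and 0.875 and 0.916 in the KO IPs, and the second 0.177 and 0.152 in the WT inputs, 0.0642 and 0.0780 in the WT IPs, 0.935 and 0.932 in the KO inputs and 0.937 and 0.860 in the KO IPs. Both were lower in the WT IPs than in the WT inputs in each replicate, and the first of them was called. AIM6, AMS1, NUM1, RNY1, SRL2, YBR096W, YIL177C and YRF1-6 were the other genes with 2 members, between 74 and 3566 nt apart. YIL177C and YRF1-6 lie in subtelomeric repeats of nearly identical sequence and cannot be counted as separate cases. In all, 18 members lay in genes with close copies, and of the 280 others 130 were called lower in WT IP and 155 (55.4%) lay in the last part.

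Sites next to the members were compared between the genotypes. For each member the nearest tested site on either side in the same model that was not itself a member was taken. Passing over members leaves out some sites that are low in WT, so the counts of lower and higher sites rest on a set that is selected to that extent. It held 440 distinct sites beside 290 members at a median distance of 107 nt. In IP, 148 of them were cut more in WT than in KO (33.6%, against 24.3% of tested sites) and 55 less (12.5%, against 17.0%), while 237 were not called. In input, 100 were cut more (22.7%, against 16.6%) and 55 less (12.5%, against 15.6%). The input counts fell to 52 and 25 without KO input replicate 1 and to 55 and 24 without KO input replicate 2. The nearest other tested sites beside the 3237 sites at 0.7 or more in all 8 libraries were read alike. In IP 32.9% of them upstream and 31.3% downstream were cut more in WT, and 16.5% and 18.8% less. In input 24.1% and 21.4% were cut more, and 15.8% and 17.3% less. With both sides pooled, the members' neighbours had shares cut more close to these and shares cut less below them.

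The share of neighbours cut more in WT IP was higher upstream of the members than downstream. Upstream, 105 of 255 neighbours were cut more in WT IP than in KO IP (41.2%) and 21 less (8.24%), and downstream 45 of 188 were cut more (23.9%) and 34 less (18.1%). Beside the sites protected only after IP, 41.1% upstream and 26.9% downstream were cut more, and 13.1% and 16.9% less. Beside the sites cut in all 8 libraries, 32.9% and 31.3% were cut more. Against the sites cut in all 8 libraries the members' share was thus higher upstream and lower downstream. Upstream it was level with that of the sites protected only after IP. At 51 to 100 nt upstream, 55 of 106 were cut more (51.9%), with a median difference of 0.158, and in input 31 were cut more (29.2%) and 12 less. Sites upstream of the 3237 that were cut in all 8 libraries, at the same distance, were cut more in 199 of 575 cases (34.6%). The sites protected only after IP had 72 of 135 (53.3%). In input, 153 of the 575 beside sites cut in all 8 libraries were cut more (26.6%) and 86 less. Beside the sites protected only after IP, 46 of the 135 were cut more in input (34.1%) and 8 less. The members' share in input lay between these. The distance classes were chosen after the values were seen, and the difference between these shares was not tested.

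In that class the neighbours had low efficiencies in the absence of IME4. The median was 0.332 in KO input and 0.367 in KO IP, against 0.627 and 0.655 over all tested sites. In WT the medians were 0.504 in input and 0.709 in IP, against 0.643 and 0.678. The neighbours thus stood below the bulk of sites in both KO groups and in WT input, and near it in WT IP. How the authors' efficiency treats a fragment with an ACA at each end is not stated, and the part of shared fragments in this was not tested.

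The neighbour of the MRP51 member shows the pattern in single libraries. MRP51 encodes a protein of the small mitochondrial ribosomal subunit, and its member +1206 read 0.411 and 0.257 in the WT inputs, 0.0427 and 0.0250 in the WT IPs, 0.986 and 0.974 in the KO inputs and 1.00 and 0.968 in the KO IPs. The site 67 nt upstream, +1139, read 0.438 and 0.513 in the WT inputs, 0.849 and 0.921 in the WT IPs, 0.0951 and 0.0412 in the KO inputs and 0.255 and 0.0221 in the KO IPs. The member was cut in KO and its neighbour hardly at all, and in WT the order was reversed in all 4 libraries. The neighbour's difference in IP was 0.747 (SE 0.0797, limma adjusted p = 0.00117).

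OMA1, a mitochondrial inner membrane protease, had its member at +1133 and a neighbour 69 nt upstream at +1064. The neighbour read 0.938 and 0.920 in the WT inputs, 0.978 and 1.000 in the WT IPs, 0.484 and 0.511 in the KO inputs and 0.290 and 0.318 in the KO IPs, a difference in IP of 0.685 (adjusted p = 6e-05). Upstream of the member in APE2, an aminopeptidase gene, the site +3222 read 0.845 and 0.855 in the WT inputs, 0.951 and 0.956 in the WT IPs, 0.269 and 0.211 in the KO inputs and 0.364 and 0.336 in the KO IPs. In PPN1, a polyphosphatase gene, the site +1462 read 0.361 and 0.395 in the WT inputs, 0.698 and 0.634 in the WT IPs, 0.0644 and 0.0565 in the KO inputs and 0.0539 and 0.0372 in the KO IPs. WT and KO did not overlap at these neighbours, and the examples were picked after their values were seen.

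Within 50 nt more neighbours were cut less than more in IP. In input as many were cut less as more with both sides pooled, but the sides differed. Of 33 neighbours at that distance 16 were cut less in WT IP than in KO IP (48.5%, against 17.0% of tested sites) and 2 more, with a median difference of -0.188. In input 6 were cut less and 6 more, with a median of 0.0152. Upstream 5 of 11 were cut less in IP and 2 more, while in input 4 were cut less and 0 more. Downstream 11 of 22 were cut less in IP and 0 more, while in input 2 were cut less and 6 more. Downstream of the sites cut in all 8 libraries 22 of 118 were cut less and 47 more, and downstream of the sites protected only after IP 12 of 40 less and 9 more.

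UBA1, the ubiquitin-activating enzyme, gives an example. Its member +2982 read 0.220 and 0.0971 in the WT inputs, 0.00728 and 0.00716 in the WT IPs, 0.867 and 0.878 in the KO inputs and 0.810 and 0.876 in the KO IPs. The site 31 nt downstream read 0.949 and 0.928 in the WT inputs, 0.503 and 0.281 in the WT IPs, 0.908 and 0.929 in the KO inputs and 0.982 and 0.972 in the KO IPs. That neighbour was above 0.9 in the WT inputs and in all KO libraries and stood apart in the WT IPs, with a genotype difference of -0.585 in IP (adjusted p = 0.00165) and 0.0204 in input (adjusted p = 0.861). NUP84 +2047, which lay 62 nt downstream of the member in that nuclear pore gene, read 0.524 and 0.291 in the WT inputs, 0.0585 and 0.102 in the WT IPs, 0.928 and 0.978 in the KO inputs and 0.743 and 0.988 in the KO IPs. It fell in WT like the member next to it, and it missed the choice through 1 WT input above 0.5.

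**Figure D5:**
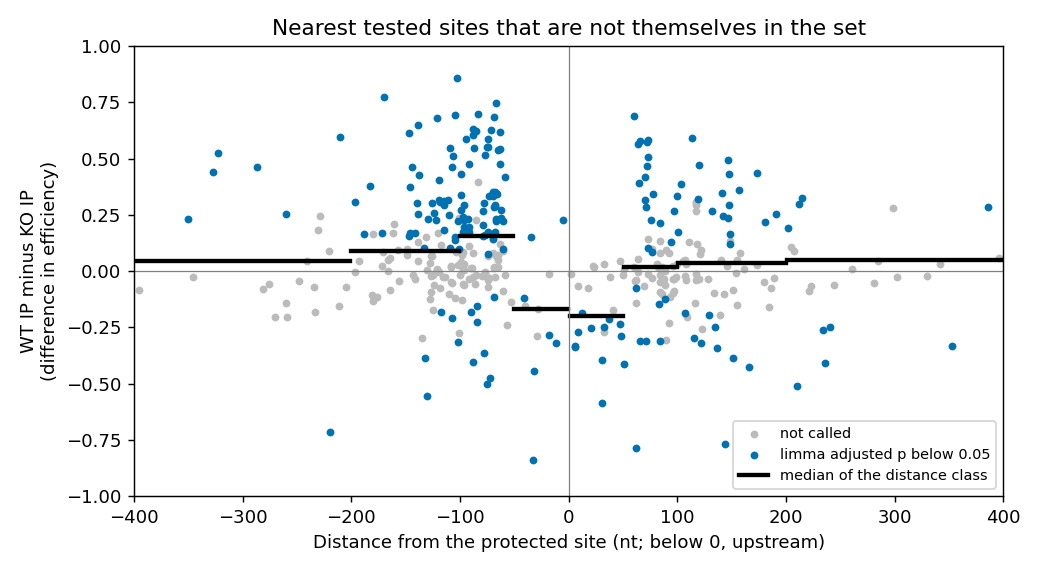
Difference in efficiency between WT IP and KO IP (vertical axis, fraction) at the nearest tested non-member sites, against their distance from the member (horizontal axis, nt, negative upstream); blue points have a limma adjusted p below 0.05, black bars are medians of the distance classes, and 35 pairs beyond 400 nt are not drawn. Points upstream at 51 to 100 nt lie mostly above 0, and points within 50 nt on either side lie mostly below.

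The members were spread thinly over the functions of the cell. Of 18 gene lists 17 held at least 1 member, 75 members were in a list and 223 in none. The share of tested sites that were members was 1.72% overall. It was 4.44% (8 of 180) for general transcription factors and RNA polymerase II, 2.94% (6 of 204) for nutrient sensing and autophagy and 2.48% (13 of 524) for ubiquitin and the proteasome. It was 0.557% (3 of 539) for acetate use, the TCA cycle and gluconeogenesis, 0.636% (3 of 472) for cytosolic ribosomal proteins and 0.595% (2 of 336) for cytosolic chaperones. These shares were not tested and no list is called particular for them.

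IME1, the master regulator of meiosis, had 11 sites with complete values, the kinase gene IME2 had 16, and the methyltransferase complex and its reader had 39. They held 0 members, which at an overall share of 1.72% is too few sites to read anything from. RME1, the repressor of IME1, and NDT80 had 0 sites with a value in every library. RME1 is known as a target of methylation, and its 15 listed sites had 0 and 3 values in the WT inputs and 15 and 15 in the KO inputs, but 8 and 8 in the WT IPs and 4 and 6 in the KO IPs.

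The list of early meiotic regulators held 2 members of 155 tested sites (1.29%), in RIM4 and SUM1. RIM4, the RNA-binding repressor of translation in meiosis, read 0.154 and 0.131 in the WT inputs, 0.246 and 0.252 in the WT IPs, 0.878 and 0.936 in the KO inputs and 0.862 and 0.855 in the KO IPs at +673. WT IP was above WT input, a difference of 0.106. SUM1, the repressor of middle meiotic genes, read 0.366 and 0.498 in the WT inputs, 0.251 and 0.121 in the WT IPs, 0.968 and 0.987 in the KO inputs and 0.965 and 0.924 in the KO IPs at +3007, with a difference between WT IP and WT input of -0.246.

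The recombination list had 7 members of 403 tested sites (1.74%), of which 3 were called lower and 1 higher in WT IP, again with 47.7% and 3.36% over all members. Besides MEI5 and PCH2 they were in RDH54, MPS3, RMI1 and MEI4. RDH54 encodes a DNA translocase that works with the recombinases, and +2919 read 0.440 and 0.340 in the WT inputs, 0.0368 and 0.0694 in the WT IPs, 0.918 and 0.932 in the KO inputs and 0.956 and 0.944 in the KO IPs. MEI4, needed for meiotic double-strand breaks, read 0.314 and 0.330 in the WT inputs, 0.308 and 0.290 in the WT IPs, 0.805 and 0.754 in the KO inputs and 0.823 and 1.00 in the KO IPs at +775, with WT input and IP alike. RMI1, which acts with the Sgs1 helicase, had WT inputs of 0.410 and 0.250 and WT IPs of 0.142 and 0.0708, and MPS3, a nuclear envelope protein that tethers telomeres, had 0.262 and 0.401 and 0.0319 and 0.0678.

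Chromosome structure and segregation added 6. Beside both sites of SMC1 the cohesin loader gene SCC2 held +2618, which read 0.204 and 0.170 in the WT inputs, 0.0136 and 0.00764 in the WT IPs, 0.884 and 0.992 in the KO inputs and 0.900 and 0.970 in the KO IPs. BUB3, of the spindle checkpoint, read 0.142 and 0.0889 in the WT inputs, 0.0699 and 0.0657 in the WT IPs, 1.00 and 0.991 in the KO inputs and 0.809 and 0.958 in the KO IPs at +1209. At SCC2 the WT IPs were near 0 and at BUB3 the WT inputs were already low. NDC80, of the outer kinetochore, had WT inputs of 0.437 and 0.444 and WT IPs of 0.285 and 0.283, and DUO1, of the DASH complex on microtubules, had 0.303 and 0.363 and 0.171 and 0.164.

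Of the RNA-binding and decay list, NGR1 was protected almost fully after IP. This gene encodes a protein that promotes decay of bound mRNAs, and +2344, its last listed site, read 0.211 and 0.244 in the WT inputs, 0.00642 and 0.00559 in the WT IPs, 0.974 and 0.949 in the KO inputs and 1.00 and 0.959 in the KO IPs. DCP2, the decapping enzyme, had WT inputs of 0.428 and 0.452 and WT IPs of 0.232 and 0.150 at +3089. NAB2, a nuclear poly(A)-binding protein, had WT inputs of 0.489 and 0.356 and WT IPs of 0.324 and 0.175, which do not overlap but were not called.

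The 8 members of the transcription list lay in 8 genes, and 4 were called lower in WT IP with 0 higher, near the shares over all members. After SSL2 these were TFA1 (TFIIE), NUT1 and MED4 (Mediator), TAF10 (TFIID and SAGA), SUA7 (TFIIB), TOA2 (TFIIA) and RPB2 (the second largest subunit of the polymerase). SUA7 +785 read 0.357 and 0.406 in the WT inputs, 0.111 and 0.0609 in the WT IPs, 1.00 and 1.00 in the KO inputs and 0.956 and 0.975 in the KO IPs, and RPB2 +3781 read 0.344 and 0.365 in the WT inputs, 0.0753 and 0.0878 in the WT IPs, 0.981 and 0.960 in the KO inputs and 0.912 and 0.928 in the KO IPs. TFA1 +1580 read 0.117 and 0.0815 in the WT inputs, 0.114 and 0.239 in the WT IPs, 0.959 and 0.977 in the KO inputs and 1.00 and 0.938 in the KO IPs. SUA7 and RPB2 were moderately protected in input and strongly after IP, while at TFA1 the input values were the lower ones or level with IP.

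The ubiquitin and proteasome list had 13 members in 13 genes, with 7 called lower in WT IP and 0 higher (47.7% and 3.36% over all members), and 4 in the last part of their model. Proteasome subunits held PUP2, PRE1, PRE5, PRE6, RPN9, RPT1 and RPT4. RPN9 +616 read 0.229 and 0.216 in the WT inputs, 0.0280 and 0.0315 in the WT IPs, 0.958 and 0.924 in the KO inputs and 0.958 and 0.929 in the KO IPs. CDC48, the segregase of ubiquitylated proteins, read 0.266 and 0.257 in the WT inputs, 0.0102 and 0.0160 in the WT IPs, 0.944 and 0.954 in the KO inputs and 0.842 and 0.857 in the KO IPs at +2569. WT IP was below 0.1 in both genes.

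All 3 of the acetate and TCA list were called lower in WT IP (ACH1, YAT2 and MDH2), as were 4 of the 5 of the respiratory list, where 47.7% of all members and 8.43% of tested sites were; with 3 and 5 members the lists were not compared. YAT2, a carnitine acetyltransferase, read 0.316 and 0.280 in the WT inputs, 0.0288 and 0.0399 in the WT IPs, 0.915 and 0.953 in the KO inputs and 0.855 and 0.897 in the KO IPs at +2435. ATP2, the beta subunit of the F1 ATP synthase, read 0.451 and 0.487 in the WT inputs, 0.168 and 0.134 in the WT IPs, 0.915 and 0.896 in the KO inputs and 0.902 and 0.911 in the KO IPs at +1346, and ATP5, of its stalk, had WT inputs of 0.317 and 0.288 and WT IPs of 0.0402 and 0.0380 at +144. The ATP5 site lay in the first part of its model, unlike most.

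Among signalling genes, GCN2, the kinase that senses uncharged tRNA, read 0.311 and 0.238 in the WT inputs, 0.0502 and 0.0782 in the WT IPs, 1.00 and 0.934 in the KO inputs and 1.00 and 1.00 in the KO IPs at +3069. RAS2, of the Ras and protein kinase A pathway, read 0.286 and 0.325 in the WT inputs, 0.345 and 0.348 in the WT IPs, 0.932 and 0.992 in the KO inputs and 1.00 and 1.00 in the KO IPs at +928. At GCN2 the WT IPs lay under the WT inputs, and at RAS2 they lay above them. The 3 ribosomal protein members were in RPL25, RPL34B and RPL7B, the last 2 of which have a near-identical paralog. RPL25 +965 read 0.229 and 0.213 in the WT inputs, 0.00298 and 0.00620 in the WT IPs, 0.912 and 0.894 in the KO inputs and 0.784 and 0.892 in the KO IPs, which puts the WT IPs near 0.

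The remaining lists held few members each and were not compared. Their calls stand beside 47.7% of all members and 8.43% of tested sites called lower in WT IP. Of the 7 of vesicle traffic and the vacuole 4 were called lower in WT IP, with SEC27, a COPI coat subunit, at 0.337 and 0.279 in the WT inputs and 0.0196 and 0.0114 in the WT IPs, and VPS13, a lipid transfer protein, at 0.284 and 0.224 and 0.227 and 0.276. Translation had 4, with YEF3, the fungal elongation factor 3, at 0.271 and 0.207 and 0.0224 and 0.0338. The nuclear pore, mitochondrial ribosome, chaperone and cell cycle lists had 2 each, of which 1 in each was called lower in WT IP: NUP84, MRP51, HSP82 and CDC11.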

How the data were processed

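Cleavage efficiencies were read from 1 deposited table of 77601 lines in 6104 gene models. Per the file headers the values are a fraction per ACA site and library, normalized by the authors in an unstated way. Per the submitters' processing notes, bedtools 2.26.0 and STAR 2.5.3a were used, in roles not given there. Where lines shared chromosome, position and strand, the first was kept (76330 sites), and 17361 sites with a value in all 8 libraries were tested. Locus names of 5680 models matched R64 locus tags in the reference gene table, used for symbols and gene lengths; coordinates are the table's own. Offsets count nt along the strand from the model start. Groups follow the sample titles.

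limma 3.58.1 in R 4.3.3 was fitted to the fractions with 1 mean per group (4 residual degrees of freedom, prior SD 0.0375, prior degrees of freedom 1.72) and adjusted by Benjamini and Hochberg over all tested sites; it was tested on simulated data. The rest used Python 3.11.15, pandas 2.3.3 and matplotlib 3.10.9. Depth is unknown, so no value carries a counting interval. The text names the 12 widest gaps (1 per gene), genes with 2 members, up to 3 members per gene list by gap, the 5 largest falls and rises in WT IP, the 3 sites nearest each limit on either side, the 4 nearest a model start, and IME4, IME1, IME2, RME1 and NDT80. Others were named after their values were seen (neighbours, NOB1, and genes given for a list beyond those 3). The members and lists were chosen with earlier results of these data known. Alternatives were a logit scale, fewer libraries, replicate blocks, quantile normalization, filters, other limits and leaving out each library. Sequences are not shown, because no genome of the table's build was used here.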

Additional observations from a re-analysis of the deposited data

Results flagged for a closer look

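By limma's interaction term, the difference between WT and KO was called unlike in IP and in input at 61 members downward (20.5%, against 4.31% of tested sites). It was called upward at 2 (0.671%, against 3.43% of tested sites). All 8 values of a member are bounded by the choice of the sites, so these are descriptions and no p is given. The interaction was -0.415 at PUP2 +636, -0.419 at GAP1 +429, -0.387 at ACH1 +1274, -0.375 at YER079W +695 and -0.242 at NUM1 +6175. At these 5 sites WT fell further below KO after IP than in input. It was 0.285 at MEI5 +238 and 0.229 at SPO24 +394, where WT came nearer to KO after IP. The 61 and 2 calls, with these 7 among them, all ended without KO input replicate 1, without KO input replicate 2 and with the block nested in genotype. YER079W, NUM1, MEI5 and SPO24 also lost theirs on the logit scale. The NUM1 call held in 6 of 14 alternative fits and the SPO24 call in 5 of 13. Those at YER079W and MEI5 each held in 10 of 14.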

How the results depend on the processing

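The counts rest on 2 libraries a group and unknown depth, and on a fit that gives all groups 1 variance per site. WT IP below WT input was called at 142 members and at 74 with only the 4 libraries of the contrast, and leaving out 1 library gave 79 to 142. WT IP above WT input was called at 10 and at 0 on the logit scale, 3 with 4 libraries, 6 with the replicate block, 4 with the block nested in genotype, 2 after quantile normalization, and 2 to 8 leaving out 1 library. KO IP below KO input was called at 1 member and at 0 with 4 libraries, with the replicate block, with the nested block, with a mean of at least 0.1, and leaving out any library (0 to 0). KO IP above KO input went from 0 to 1 on the logit scale. The interaction was called lower at 61 and at 17 on the logit scale, 27 with the replicate block, 0 with the nested block and 0 to 57 leaving out 1 library. It was called higher at 2 and at 0 on the logit scale, 1 with the replicate block, 0 with the nested block, 1 without sites at 0.99 or more, and 0 to 3 leaving out 1 library. At neighbours in input, leaving out 1 library gave 24 to 56 lower calls and 52 to 112 higher calls. Limits of 0.8 and 0.4 left 132 members, and 0.6 and 0.6 gave 617. The cause of these shifts was not tested, except that fewer libraries leave fewer degrees of freedom and other limits change the choice itself. Of 192 recomputed values 140 stayed close to the reported one and 52 did not. Close meant counts within 1.5 times or equal, and shares inside the reported Wilson interval. KO IP above KO input, at 0 in most fits, counts among the close ones, so the 140 is no measure of stability. Those that stayed close included neighbours in IP and the upstream neighbours at 51 to 100 nt (44 to 56). The share in the last part of the gene model did too (52.8% to 60.6%). Whether same-numbered input and IP libraries were paired is not given in the sample titles. Deviations of same-numbered libraries correlated at 0.0788 between WT input and WT IP and 0.0511 between KO input and KO IP. Between the genotypes they correlated at -0.0166 to 0.0110. These weak correlations do not decide whether the libraries were paired. With the block nested in genotype the 142 lower calls in WT IP became 95.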

Other observations

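The following members outside the gene lists were picked after their values were seen and are given as single sites; no share of any group of genes was computed for them. DIT1, which makes the dityrosine precursor of the spore wall, had WT values between 0.00771 and 0.0627 at +1734 and KO values between 0.740 and 0.943. SPO1, a sporulation gene, had WT inputs of 0.408 and 0.346 and WT IPs of 0.0426 and 0.0329 at +2053. SPO71, needed for growth of the prospore membrane, had WT inputs of 0.213 and 0.137 and WT IPs of 0.00705 and 0.0113 at +2797.

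SLT2, a MAP kinase gene, had at +1594 WT inputs of 0.401 and 0.351 and WT IPs of 0.0515 and 0.0282, and FKS1, a glucan synthase gene, had at +5699 0.399 and 0.278, then 0.0749 and 0.0664. At +4318 of ROM2, an exchange factor for Rho1, the WT inputs were 0.387 and 0.365 and the WT IPs 0.354 and 0.348, and at +1995 of GAS1, a glucanosyltransferase, they were 0.289 and 0.319, then 0.317 and 0.242. SLT2 and FKS1 were called lower in WT IP, and ROM2 and GAS1 were not called. Whether these genes differ in this was not tested.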
